A study of Homo sapiens with 16 samples.

Results

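Tight junctions seal neighbouring epithelial cells to each other near the apical surface, and tricellular junctions close the gaps where the corners of several cells meet. The genes described here encode 9 proteins of these junctions: LSR, MARVELD2, MARVELD3, OCLN, CLDN1, CLDN4, CLDN7, F11R and TJP1. They were taken as the features of the deposited annotated matrix whose gene symbol was exactly one of these names, 21 of 54675 probe sets, averaged to 1 value per gene, which made 9 of the 20307 genes measured. All 9 were measured, and no filter on low signal was applied.

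The study measured total RNA of 16 xenograft tumours, 4 from each of 4 sublines of PC-3, a human prostate cancer cell line, on Affymetrix arrays with 1 array per tumour. Cells were grown under the skin of female nude mice of BALB/c background, 5 weeks old at injection, and tumours were taken once they measured at least 5 mm. The line mock was the plain control, with short telomeres and without added hTERT (exogenous hTERT absent), which is the catalytic subunit of telomerase. In LhTERTL, telomeres were long and exogenous hTERT was present. The line labelled mock/cre+, called mock_cre here, had Cre, short telomeres and no exogenous hTERT. The line labelled LhTERTL/cre+, called LhTERTL_cre, had Cre and long telomeres, with exogenous hTERT absent. All 4 lines share the PC-3 background, and no tumour received a treatment. Each combination of telomere length, Cre and hTERT was represented by 1 line, so differences between lines and effects of telomere length cannot be told apart. The tumours were described as independent, so p-values measure the spread among tumours of a line.

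Each deposited value is a log2 signal from which the median of its probe set across the tumours was subtracted, so 0 is that median and a value says how far a tumour lay above or below it. No level remains, and genes cannot be ranked by abundance. A difference was called when limma's adjusted p over all 20307 genes was under 0.05, in a model with 1 mean per line. In bulk tumour RNA, fewer cells of a type and less RNA per cell cannot be told apart. Probes are human, so mouse stroma is seen only through cross-hybridisation.

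As background, tight junction strands are built from claudins, membrane proteins that set which ions pass between cells. Occludin, tricellulin (MARVELD2) and MARVELD3 share a four-pass membrane domain and form the TAMP family. LSR, the lipolysis-stimulated lipoprotein receptor, recruits tricellulin to the corners where cells meet, and the plaque protein ZO-1 (TJP1) ties the strands to actin. In carcinoma cells, these genes tend to be high in the epithelial state and repressed by factors such as SNAI2 and ZEB1.

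Several measures of the arrays bear on what follows. TERT was highest in LhTERTL, at 1.48 ± 0.14, against 0.20 ± 0.17 in mock, -0.22 ± 0.26 in mock_cre and 0.11 ± 0.19 in LhTERTL_cre (SD, n = 4 each), averaged over probe sets that disagreed. The log2 ratio of 3′ to 5′ signal in the array's beta-actin and GAPDH controls, a measure of RNA quality and labelling, averaged 0.64 ± 0.38 in mock_cre (SD, n = 4), from 0.40 to 1.21. It averaged 0.07 in mock, -0.08 in LhTERTL and -0.07 in LhTERTL_cre, and no tumour of these lines exceeded 0.30, so every mock_cre array lay above all others. The poly-A spike controls, added to the RNA before labelling, stood high on 5 arrays, namely mock 3, LhTERTL 3, mock_cre 1, mock_cre 4 and LhTERTL_cre 1. Of markers of other cells, none of 6 macrophage genes was called between long and short telomeres. Among 8 keratinocyte genes 1 was lower, among 7 fibroblast genes 1 was higher, and among 8 endothelial genes 2 were higher and 1 lower. In this comparison 18.4% of all genes were called higher and 14.1% lower. Counts in lists this short do not show whether the share of other cells differed. The mean of the keratinocyte markers, the list nearest to an epithelial source in mouse skin, ranged over the short-telomere tumours from -0.09 to 0.14 (mock) and from -0.12 to 0.30 (mock_cre), and over the long-telomere tumours from -0.11 to 0.23 (LhTERTL) and from -0.15 to 0.11 (LhTERTL_cre).

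LSR and MARVELD2, the proteins of the tricellular junction, both had their highest line mean in mock_cre and their lowest in LhTERTL_cre. They differed in the order of mock and LhTERTL between them. LSR (Entrez gene 51599, chromosome 19, 35249002 to 35267964 on GRCh38.p14) is both a lipoprotein receptor and the angulin that recruits tricellulin. Its values were -0.45, -0.57, 0.22 and -0.60 in the mock tumours and 0.13, 0.26, 0.05 and -0.05 in LhTERTL. They were 0.78, 0.18, 1.09 and 0.81 in mock_cre and -0.71, -0.94, -0.87 and -0.12 in LhTERTL_cre. The mock_cre and LhTERTL_cre tumours did not overlap, whereas mock spanned a wide range because 1 tumour, mock 3, lay above the other 3.

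LSR averaged 0.71 ± 0.38 in mock_cre and -0.66 ± 0.37 in LhTERTL_cre (SD, n = 4 each), a difference of -1.38 ± 0.20 (SE), or 2.59-fold lower with long telomeres (adjusted p = 8.03e-05). Between the lines without Cre, the LSR difference had the opposite sign, 0.45 ± 0.20 from -0.35 ± 0.39 in mock to 0.10 ± 0.13 in LhTERTL, and missed the threshold (adjusted p = 0.140, 95% interval 0.02 to 0.88). It passed when mock 3 was left out, at 0.64 (adjusted p = 0.0254). The direct test of the difference between these telomere contrasts gave -1.83 ± 0.29 for LSR (adjusted p = 0.000768). Between the short-telomere lines, LSR was 2.09-fold higher in mock_cre than in mock (1.07 ± 0.20, adjusted p = 0.00134). When the 3′/5′ ratio was added as a covariate, this LSR difference was 0.89 (adjusted p = 0.0594), and that of LhTERTL_cre minus mock_cre was -1.16 (adjusted p = 0.0202).

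MARVELD2 encodes tricellulin, which LSR holds at cell corners. Its values were -0.01, -0.32, 0.35 and 0.08 in mock and -0.01, 0.04, -0.26 and -0.41 in LhTERTL. In mock_cre they were 0.65, 0.30, 0.83 and 0.61, and in LhTERTL_cre they were -0.63, -1.04, -0.58 and -0.35. No mock_cre tumour overlapped LhTERTL or LhTERTL_cre, and all 4 LhTERTL_cre tumours lay below every mock tumour.

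The MARVELD2 means were 0.60 ± 0.22 in mock_cre and -0.65 ± 0.29 in LhTERTL_cre (SD, n = 4), 2.37-fold apart (-1.25 ± 0.16 SE, adjusted p = 1.59e-05). MARVELD2 was also 1.48-fold higher in mock_cre than in mock (0.57 ± 0.16, adjusted p = 0.0152), a call lost without mock 2 or without mock_cre 3 (adjusted p = 0.0614 and 0.0569) and with the 3′/5′ covariate (0.46, adjusted p = 0.211). Unlike LSR, MARVELD2 had no positive difference between LhTERTL and mock (-0.19 ± 0.16, adjusted p = 0.472). Its direct test of the difference between the telomere contrasts gave -1.06 ± 0.22 (adjusted p = 0.00517), and -0.95 with the 3′/5′ covariate (adjusted p = 0.0519). Another angulin, ILDR1, which can replace LSR at cell corners, had line means between -0.06 and 0.10 and was called in none of the comparisons.

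**Figure D1:**
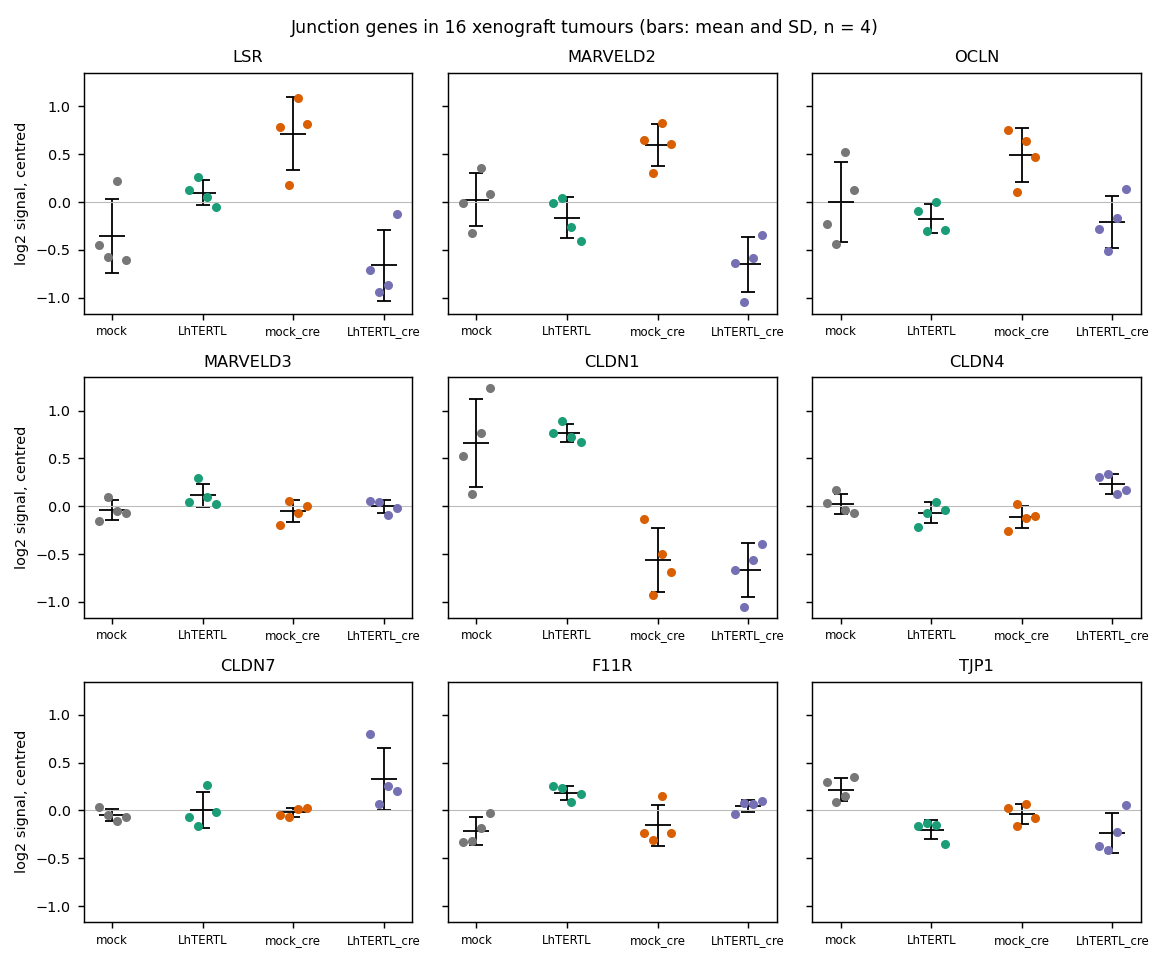
Centred log2 signal (vertical axes) of the 9 junction genes in each of 16 xenograft tumours, grouped by line along the horizontal axes, where points are tumours and bars show the mean and SD of 4. LSR, MARVELD2 and OCLN stand highest in mock_cre, CLDN1 lies below 0 in all 8 tumours of the Cre lines, and the line means of MARVELD3 stay within 0.17 of each other.

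OCLN encodes occludin, the founding member of the TAMP family. Its values were -0.22, -0.43, 0.52 and 0.13 in mock and -0.10, -0.31, -0.00 and -0.29 in LhTERTL. They were 0.76, 0.10, 0.63 and 0.47 in mock_cre and -0.28, -0.51, -0.16 and 0.13 in LhTERTL_cre. Every mock_cre tumour lay above every LhTERTL tumour, and the mock tumours spread across nearly the whole range.

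OCLN was 1.62-fold lower in LhTERTL_cre (-0.21 ± 0.27) than in mock_cre (0.49 ± 0.28, SD, n = 4), a difference of -0.70 ± 0.18 (SE, adjusted p = 0.00740). This OCLN difference was -0.49 with the 3′/5′ covariate (adjusted p = 0.262) and -0.55 on the 11 arrays of low spike signal (adjusted p = 0.0935). The other OCLN comparisons of paired lines missed the threshold, at 0.49 for mock_cre minus mock (adjusted p = 0.0690), -0.17 for LhTERTL minus mock and -0.03 for LhTERTL_cre minus LhTERTL. The first of these passed with the replicate number as a block (adjusted p = 0.0186). For OCLN the difference between the telomere contrasts was -0.52 ± 0.26 (adjusted p = 0.232), so a split like that of LSR was not shown.

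MARVELD3, the remaining TAMP protein, had no call in any of the 6 pairs of lines. Its line means ran from -0.05 ± 0.11 in mock_cre to 0.11 ± 0.12 in LhTERTL (SD, n = 4), and its 3 probe sets gave no call either. The widest MARVELD3 difference, LhTERTL minus mock_cre, was 0.17 with a 95% interval of 0.00 to 0.33 (adjusted p = 0.117).

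MARVELD2 and OCLN are neighbours on chromosome 5, with no other protein-coding gene between them in the RefSeq annotation of GRCh38.p14. MARVELD2 (Entrez gene 153562) spans 69415116 to 69444330, and OCLN spans 69492547 to 69558104. OCLN stands in the deposited annotation under Entrez gene 4950 and in RefSeq under 100506658, and a pseudogene copy of it, OCLNP1, exists, so its probe sets may share signal with that copy. Of 12 protein-coding genes in the window, which includes the pair, 6 were measured: CDK7, CCDC125, TAF9, RAD17, MARVELD2 and OCLN. The measured neighbours all lay on the MARVELD2 side, and no gene of the window beyond OCLN was measured. These neighbours were looked at after the values of the pair were seen. CDK7, a kinase of transcription and the cell cycle, was lower with long telomeres in both pairs of lines (-0.29 and -0.39, adjusted p = 0.0200 and 0.00217). RAD17, a DNA damage checkpoint gene, was lower as well (-0.33 and -0.29, adjusted p = 0.00676 and 0.0118). In mock_cre minus mock neither was called, at -0.03 for CDK7 and 0.07 for RAD17 (adjusted p = 0.865 and 0.612). RAD17 had its highest line mean in mock_cre, 0.21, as did CCDC125, 0.16. CCDC125 and TAF9 were called in none of these comparisons.

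The promoters of the genes that were highest in mock_cre are shown next, with that of CLDN1 because its pattern across the lines was different. Each is the 250 bases before a transcription start, on the gene's strand, from RefSeq on GRCh38.p14. A window was found for 7 of the 9 genes, all but MARVELD3 and F11R. Capitals mark CAGGTG on either strand, an E-box that SNAI and ZEB repressors recognise, and AACCGG on either strand, a half-site of the grainyhead factors.
LSR chr19:35248752-35249001, plus strand: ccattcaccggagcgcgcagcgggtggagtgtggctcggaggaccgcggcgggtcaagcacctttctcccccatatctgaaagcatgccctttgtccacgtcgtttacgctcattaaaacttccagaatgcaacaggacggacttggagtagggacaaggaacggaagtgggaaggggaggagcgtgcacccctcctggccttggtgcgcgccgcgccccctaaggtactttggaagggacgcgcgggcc
MARVELD2 chr5:69414866-69415115, plus strand: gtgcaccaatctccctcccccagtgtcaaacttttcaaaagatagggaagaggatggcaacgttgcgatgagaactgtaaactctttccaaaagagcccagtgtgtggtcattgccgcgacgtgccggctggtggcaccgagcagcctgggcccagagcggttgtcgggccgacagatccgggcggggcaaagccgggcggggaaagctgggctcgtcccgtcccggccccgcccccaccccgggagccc
OCLN chr5:69492297-69492546, plus strand: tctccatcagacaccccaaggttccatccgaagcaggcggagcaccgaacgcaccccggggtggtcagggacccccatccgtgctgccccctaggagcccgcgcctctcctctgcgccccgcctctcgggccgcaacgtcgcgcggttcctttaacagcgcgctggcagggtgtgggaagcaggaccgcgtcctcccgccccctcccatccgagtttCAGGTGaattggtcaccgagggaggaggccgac
CLDN1 chr3:190322447-190322696, minus strand: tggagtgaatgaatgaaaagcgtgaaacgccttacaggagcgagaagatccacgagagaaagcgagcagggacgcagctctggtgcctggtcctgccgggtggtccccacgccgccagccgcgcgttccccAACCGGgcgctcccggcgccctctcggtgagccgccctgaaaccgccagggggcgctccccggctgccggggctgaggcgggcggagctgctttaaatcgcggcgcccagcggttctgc
The OCLN window held 1 E-box, at position -33 from the start, and the CLDN1 window held 1 half-site. A second OCLN window, from a later start and not printed, held an E-box at -133 and a half-site at -57. Also not printed, a CLDN7 window held 4 E-boxes and 2 half-sites, and a TJP1 window held an E-box at -88. The other windows of CLDN7 and TJP1, and that of CLDN4, had no such letters. The LSR and MARVELD2 windows held neither, which says only that these letters are not in these windows. Among 35116 windows of the same length, 17.5% held the E-box and 5.99% the half-site, and of the 12 windows of the junction genes, counting each start, 4 and 3 did.

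CLDN1 was lower in both Cre lines, and its differences between long and short telomeres were not called. Claudin-1 is a barrier-forming claudin of skin and many other epithelia. Its values were 0.52, 0.13, 0.77 and 1.23 in mock and 0.77, 0.89, 0.72 and 0.67 in LhTERTL. They were -0.13, -0.92, -0.50 and -0.69 in mock_cre and -0.66, -1.05, -0.56 and -0.40 in LhTERTL_cre. All 8 tumours without Cre lay above all 8 with it.

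CLDN1 was 2.33-fold lower in mock_cre than in mock (-1.22 ± 0.20, SE, adjusted p = 0.000318) and 2.70-fold lower in LhTERTL_cre than in LhTERTL (-1.43 ± 0.20, adjusted p = 0.000531). The line means were 0.66 ± 0.46 and 0.76 ± 0.09 without Cre and -0.56 ± 0.33 and -0.67 ± 0.28 with it (SD, n = 4). Between long and short telomeres the CLDN1 differences were 0.10 ± 0.20 without Cre (95% interval -0.31 to 0.51) and -0.11 ± 0.20 with it (-0.52 to 0.30), and neither was called. The difference between these contrasts was -0.21 ± 0.28 (adjusted p = 0.738). Both CLDN1 calls held with the 3′/5′ covariate (-1.25 and -1.43, adjusted p = 0.0112 and 0.00101) and whichever array was left out. CLDN1 is probed at 2 sites, and both probe sets gave both calls. The cross comparisons gave like values, 1.32 for LhTERTL minus mock_cre and -1.33 for LhTERTL_cre minus mock.

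CLDN4 and CLDN7, claudins of simple and glandular epithelia that are often expressed together, had their highest line means in LhTERTL_cre. The means of LSR and MARVELD2 were lowest in that line. LhTERTL_cre was not called apart from mock for LSR (-0.31, adjusted p = 0.387) and CLDN4 (0.21, adjusted p = 0.0935). Nor was it from LhTERTL for MARVELD2 (-0.49, adjusted p = 0.104) and CLDN7 (0.32, adjusted p = 0.180). The OCLN mean was lowest in LhTERTL_cre too, at -0.21, but LhTERTL was about as low, at -0.17 (difference -0.03, adjusted p = 0.969). CLDN4 values were 0.31, 0.34, 0.12 and 0.17 in LhTERTL_cre, against 0.04, 0.17, -0.04 and -0.07 in mock. They were -0.22, -0.07, 0.05 and -0.04 in LhTERTL and -0.26, 0.02, -0.12 and -0.11 in mock_cre. LhTERTL_cre did not overlap mock_cre or LhTERTL, and it overlapped mock through 1 tumour, mock 2.

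CLDN4 was 1.27-fold higher in LhTERTL_cre than in mock_cre (0.35 ± 0.08, SE, adjusted p = 0.00315) and 1.23-fold higher than in LhTERTL (0.30 ± 0.08, adjusted p = 0.0490). The second CLDN4 call sat at the threshold: it was lost on leaving out any of 11 of the 16 arrays, with adjusted p from 0.0416 to 0.170 over all 16. The direct test of the difference between the telomere contrasts gave 0.44 ± 0.11 for CLDN4 (adjusted p = 0.0182), opposite in sign to LSR and MARVELD2. On the 11 arrays of low spike signal it was 0.41 (adjusted p = 0.0925) and that of LhTERTL_cre minus mock_cre 0.26 (adjusted p = 0.106). The probe set 201428_at carried the CLDN4 differences (0.65 in LhTERTL_cre minus mock_cre), while 1569421_at gave 0.05.

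CLDN7 was 0.80, 0.07, 0.26 and 0.20 in LhTERTL_cre, and in the other lines it ran from -0.16 to 0.27. The first of these tumours was the highest of all 16. CLDN7 was 1.28-fold higher in LhTERTL_cre than in mock_cre (0.35 ± 0.12, adjusted p = 0.0391), and without LhTERTL_cre 1 the difference was 0.19 (adjusted p = 0.131). Leaving out any one mock_cre array, or LhTERTL_cre 3, also lost the CLDN7 call, with adjusted p from 0.0507 to 0.0815. Against mock, CLDN7 in LhTERTL_cre was 0.38 ± 0.12 higher (adjusted p = 0.0433).

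Of 17 other claudins measured of 18 listed, 1 was called lower and none higher between long and short telomeres, where 14.1% and 18.4% of all genes were. That gene was CLDN11, a claudin of myelin and of the testis barrier, which was high in mock alone, at 0.84 ± 0.19 (SD, n = 4), against -0.07, -0.14 and -0.17 in the other lines. In mock_cre minus mock, 3 were higher and 3 lower, against 9.02% and 10.1% of all genes. Those higher were CLDN3 (0.39 ± 0.09, adjusted p = 0.00466), CLDN10 (0.42 ± 0.13, adjusted p = 0.0250) and CLDN12 (0.51 ± 0.10, adjusted p = 0.00188). All 3 were lower in LhTERTL_cre than in mock_cre, with differences of -0.28 for CLDN3, -0.35 for CLDN10 and -0.29 for CLDN12 (adjusted p = 0.0249, 0.0459 and 0.0460). Their direction was that of LSR, and not that of CLDN4 or CLDN7. CLDN15 was lower in LhTERTL than in mock (-0.29 ± 0.08, adjusted p = 0.0126).

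F11R encodes JAM-A, an immunoglobulin-like adhesion protein that helps place the polarity complex at new junctions. Its values were 0.25, 0.23, 0.08 and 0.17 in LhTERTL and -0.04, 0.08, 0.06 and 0.10 in LhTERTL_cre. They were -0.33, -0.32, -0.18 and -0.03 in mock and -0.24, -0.31, 0.16 and -0.23 in mock_cre. LhTERTL lay wholly above mock, and 1 mock_cre tumour lay above the LhTERTL_cre tumours.

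F11R was 1.32-fold higher in LhTERTL than in mock (0.40 ± 0.09, SE, adjusted p = 0.00546). In LhTERTL_cre minus mock_cre it gave 0.21 ± 0.09 (adjusted p = 0.117), and 0.31 without mock_cre 3 (adjusted p = 0.00801). The F11R difference between the telomere contrasts was -0.19 ± 0.13 (adjusted p = 0.437). Averaged over the pairs, F11R was 0.30 ± 0.07 higher with long telomeres (adjusted p = 0.00166), and 0.25 with the 3′/5′ covariate (adjusted p = 0.0645).

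Of 8 further junction membrane proteins measured of 9 listed, 3 were called higher with long telomeres and none lower, where 18.4% and 14.1% of all genes were. The 3 were JAM3, CXADR and ESAM, of the immunoglobulin family of F11R, and other members of that family on the list were not called (JAM2 -0.16, IGSF5 -0.06 and ILDR1 0.07). JAM2 and IGSF5 are named after their values were seen. JAM3, a relative of F11R, was higher in both pairs of lines (0.67 ± 0.09 and 0.56 ± 0.09, adjusted p = 8.42e-05 and 0.000223). CXADR, the coxsackievirus and adenovirus receptor, was 1.03 ± 0.17 higher in LhTERTL than in mock (adjusted p = 0.000351). In LhTERTL_cre minus mock_cre CXADR gave 0.33 ± 0.17 (adjusted p = 0.171), and it was lower in LhTERTL_cre than in LhTERTL (-0.99 ± 0.17, adjusted p = 0.00314). ESAM, an endothelial member of this family and one of the endothelial markers, was higher in LhTERTL_cre than in mock_cre (0.73 ± 0.15, adjusted p = 0.00115). Of the 8 endothelial markers, 1 was called higher in that comparison, ESAM, and 1 lower, where 15% and 13% of all genes were. The lower one was KDR (-0.93 ± 0.22, adjusted p = 0.00405), and PECAM1 differed by 0.34 ± 0.13 (adjusted p = 0.0616). The mean of the endothelial markers ranged from -0.00 to 0.21 in LhTERTL_cre and from -0.10 to 0.06 in mock_cre. That mean includes ESAM, so it is not a separate measure of endothelial RNA. The part of endothelial RNA in the ESAM value was not tested.

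TJP1 encodes ZO-1, the scaffold under the strands, and it was highest in mock. Its values were 0.30, 0.08, 0.15 and 0.34 in mock, -0.17, -0.14, -0.16 and -0.35 in LhTERTL and 0.02, -0.17, 0.06 and -0.08 in mock_cre. In LhTERTL_cre they were -0.37, -0.41, -0.23 and 0.05. All mock tumours lay above all those of the other 3 lines.

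TJP1 was 1.34-fold lower in LhTERTL than in mock (-0.42 ± 0.10, SE, adjusted p = 0.00463). In LhTERTL_cre minus mock_cre it gave -0.20 ± 0.10 (adjusted p = 0.146), or -0.29 without LhTERTL_cre 4 (adjusted p = 0.0137). The TJP1 difference between the telomere contrasts was 0.22 ± 0.14 (adjusted p = 0.367). Its 2 probe sets disagreed: 202011_at was lower with long telomeres in both pairs (-0.61 and -0.47, adjusted p = 0.00100 and 0.00442), whereas 214168_s_at gave -0.23 and 0.07, neither called. TJP3 (ZO-3) was lower in LhTERTL_cre than in mock_cre (-0.29 ± 0.10, adjusted p = 0.0322), and cingulin, CGN, was higher in LhTERTL than in mock (0.29 ± 0.10, adjusted p = 0.0410).

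**Figure D2:**
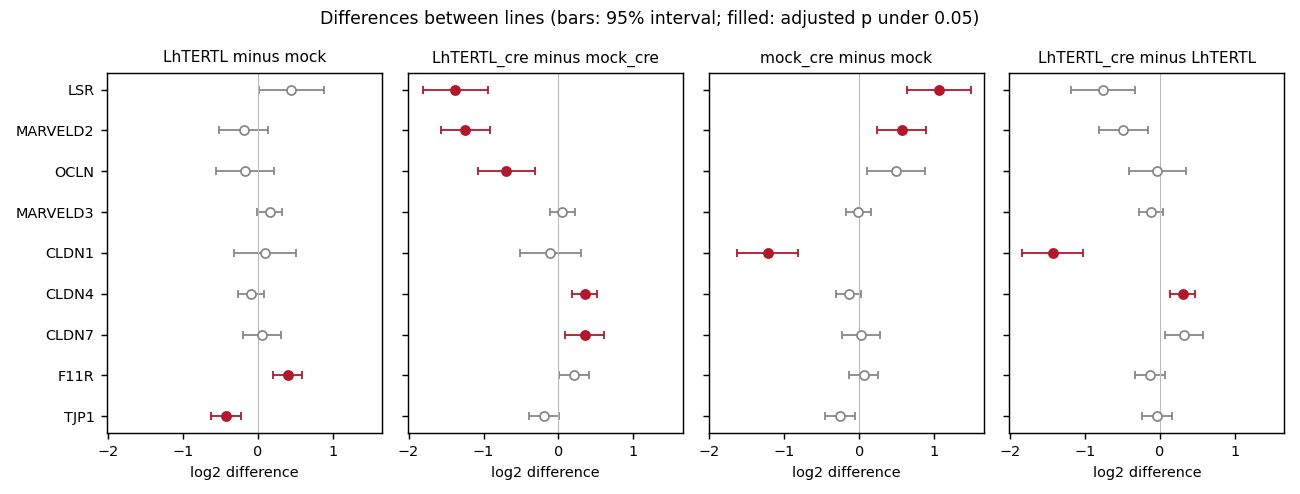
Differences in log2 signal between pairs of lines (horizontal axes) for the 9 junction genes (vertical axis), with points at the fitted difference, bars for the 95% interval and filled points where the adjusted p was under 0.05. LSR, MARVELD2 and OCLN are lower in LhTERTL_cre than in mock_cre, and CLDN1 is the one gene called lower in both comparisons of a Cre line with its counterpart.

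Of 28 plaque and polarity proteins, which sit under the strands, 2 were called higher and 8 lower with long telomeres, where 18.4% and 14.1% of all genes were. Their median difference was -0.10 against 0.02 over all genes. AMOTL2, an angiomotin-like protein, was lower in both pairs (-0.50 ± 0.07 and -0.60 ± 0.07, adjusted p = 5.71e-05 and 5.06e-06). So was ARHGEF2 (GEF-H1), a guanine nucleotide exchange factor held inactive at junctions (-0.47 ± 0.09 and -0.62 ± 0.09, adjusted p = 0.00158 and 9.06e-05). INADL, the older name of PATJ in the deposited annotation, is a scaffold of the Crumbs polarity complex. It was lower in LhTERTL_cre than in mock_cre (-0.97 ± 0.14, adjusted p = 5.39e-05), against -0.24 ± 0.14 between the lines without Cre (adjusted p = 0.261). MPDZ, its close relative, was lower in LhTERTL_cre than in mock_cre as well (-0.51 ± 0.12, adjusted p = 0.00298). MAGI1, a scaffold, and LLGL2, a basolateral polarity protein, were higher in mock_cre than in mock (0.31 and 0.40, adjusted p = 0.00355 and 0.0132).

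**Figure D3:**
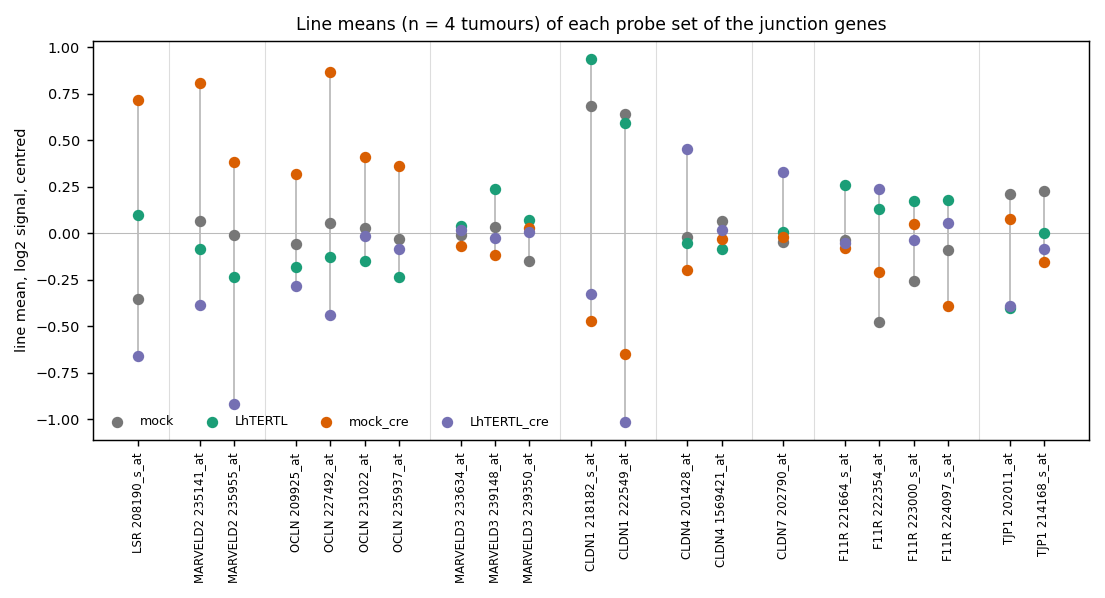
Mean centred log2 signal of each line (vertical axis, colours, n = 4 tumours) for each of the 21 probe sets of the junction genes (horizontal axis), with a grey line joining the highest and lowest line. All 4 OCLN and both MARVELD2 probe sets are highest in mock_cre, whereas the probe sets of CLDN4, F11R and TJP1 differ in their order of the lines.

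Of the 7 genes with several probe sets, MARVELD2 was the one whose probe sets all gave the same order of the lines. Both of MARVELD2 were called lower in LhTERTL_cre than in mock_cre (-1.19 for 235141_at and -1.30 for 235955_at). Of the 4 of OCLN, 227492_at and 231022_at were called in that comparison (-1.31 and -0.43), and 209925_at and 235937_at gave -0.60 and -0.45 (adjusted p = 0.116 and 0.101). For F11R, 222354_at and 223000_s_at were called in LhTERTL minus mock (0.61 and 0.42), and 222354_at and 224097_s_at in LhTERTL_cre minus mock_cre (0.45 and 0.44). LSR and CLDN7 were each read by 1 probe set, so no such comparison exists for them.

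Averaged over both pairs, long minus short telomeres gave 1 of the 9 genes higher, F11R, and 4 lower, namely LSR, MARVELD2, OCLN and TJP1. Over all genes 18.4% were called higher and 14.1% lower in this comparison. The median difference of the 9 genes was -0.00, against 0.02 over all genes. The differences were -0.46 ± 0.14 for LSR (SE, adjusted p = 0.0195), -0.72 ± 0.11 for MARVELD2 (adjusted p = 7.29e-05), -0.43 ± 0.13 for OCLN (adjusted p = 0.0142) and -0.31 ± 0.07 for TJP1 (adjusted p = 0.00176). For LSR and MARVELD2 the 2 pairs differed by the direct test given above. The LSR call was lost with the 3′/5′ covariate, on the 11 arrays of low spike signal, with quantile normalisation and without mock_cre 4 and mock 3. The OCLN call was lost in the first 2 of these settings, and those of MARVELD2 and TJP1 held in all of them. Without the 4 mock_cre arrays, mock stood alone against a line with Cre and a line without, which mixes Cre with telomere length. The difference was then 0.07 for LSR (adjusted p = 0.835) and -0.19 for OCLN (adjusted p = 0.470), and MARVELD2 and TJP1 kept their calls at -0.43 and -0.44. MARVELD2 gave -0.19 in LhTERTL minus mock (adjusted p = 0.472) and -0.68 in LhTERTL_cre minus mock (adjusted p = 0.00617). TJP1 gave -0.42 and -0.46 (adjusted p = 0.00463 and 0.00338). CLDN1 was called lower with long telomeres without the mock_cre arrays, at -0.62 (adjusted p = 0.0151). With the line as the unit, 2 long against 2 short, no gene of 20307 was called by limma, and 3218 had an unadjusted p under 0.05.

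Set against the background of each comparison, the 9 genes divided as follows. In LhTERTL minus mock 1 was higher, F11R, and 1 lower, TJP1, where 12.3% and 8% of all genes were, so the share of these genes was close to the background. In LhTERTL_cre minus mock_cre 2 were higher, CLDN4 and CLDN7, and 3 lower, LSR, MARVELD2 and OCLN, where 15% and 13% of all genes were. In mock_cre minus mock 2 were higher, LSR and MARVELD2, and 1 lower, CLDN1, against 9.02% and 10.1%. In LhTERTL_cre minus LhTERTL 1 was higher, CLDN4, and 1 lower, CLDN1, against 0.921% and 2.31%. LSR in that comparison was -0.76 ± 0.20 with no overlap between the lines, just beyond the threshold (adjusted p = 0.0507), and passed it at -0.94 without LhTERTL_cre 4 (adjusted p = 0.00880). For the difference between the telomere contrasts 1 was higher, CLDN4, and 2 lower, LSR and MARVELD2, against 4.98% and 5.62%. These comparisons share lines, so their counts are not independent of each other.

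The order of the lines follows from all 6 pairs. LhTERTL minus mock_cre, where 32.1% of all genes were called in either direction, gave 2 of the junction genes higher, CLDN1 and F11R, and 3 lower, LSR, MARVELD2 and OCLN. LhTERTL_cre minus mock, where 15.6% of all genes were called, gave CLDN7 higher and MARVELD2, CLDN1 and TJP1 lower. For LSR, mock_cre differed from LhTERTL, the next line (0.62, adjusted p = 0.0275), while LhTERTL, mock and LhTERTL_cre, in falling order of mean, had no neighbouring pair called. For MARVELD2, mock_cre differed from mock, the next line, and no neighbours below it were called. For CLDN1, the step between mock and mock_cre was the one called between neighbours. For OCLN, MARVELD3, CLDN4, CLDN7, TJP1 and F11R no neighbouring lines in the order were called apart.

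Tumours of 1 line also differed among themselves, and several junction genes had the same tumours at the extremes. Among the mock tumours, mock 3 was the highest for LSR, MARVELD2 and OCLN, at 0.57, 0.33 and 0.52 above the mean of its line. In mock_cre, mock_cre 2 was the lowest for LSR, MARVELD2, OCLN, CLDN1, CLDN7, TJP1 and F11R. In LhTERTL_cre, LhTERTL_cre 4 was the highest for LSR, MARVELD2, OCLN, CLDN1, TJP1 and F11R, and LhTERTL_cre 2 the lowest for LSR, MARVELD2, OCLN, CLDN1, CLDN7 and TJP1. Other genes went the other way, since mock 3 was the lowest of its line for CLDN7, mock_cre 2 the highest for CLDN4 and MARVELD3, and LhTERTL_cre 2 the highest for CLDN4. In LhTERTL, LhTERTL 2 was the highest for LSR and MARVELD2 and the lowest for OCLN and CLDN7. The spike signal was 1.23 in mock 3, 0.29 in mock_cre 2, -0.26 in LhTERTL_cre 2 and -0.02 in LhTERTL_cre 4. Within mock_cre it was lowest in mock_cre 3 (-0.04), the highest tumour of that line for LSR, MARVELD2, TJP1 and F11R. The part of the spike signal in these differences was not tested.

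Regulators and partners of the epithelial state are shown beside LSR. ESRP1, an epithelial splicing factor, had its highest line mean in mock_cre, 1.92 ± 0.37 (SD, n = 4), and its lowest in LhTERTL_cre, -0.98 ± 0.78. These lines differed by -2.90 ± 0.45 (SE, adjusted p = 0.000117). In mock ESRP1 averaged -0.61 ± 1.12 (SD), and LhTERTL_cre was not called apart from it (-0.36, adjusted p = 0.706). LhTERTL minus mock was not called for ESRP1 either (0.91 ± 0.45, SE, adjusted p = 0.179). Its direct test between the telomere contrasts gave -3.81 ± 0.64 (adjusted p = 0.00118). EPCAM, an adhesion protein that binds CLDN7, was -1.04 ± 0.63 in mock and 0.62 ± 0.37 in mock_cre (SD, n = 4). It was 0.14 ± 0.23 in LhTERTL and -0.72 ± 0.82 in LhTERTL_cre. EPCAM was therefore higher with long telomeres without Cre (1.18, adjusted p = 0.0180) and lower with Cre (-1.34, adjusted p = 0.00579). CDH1 (E-cadherin) was likewise 0.91 ± 0.24 higher in LhTERTL than in mock (adjusted p = 0.0111) and lower in LhTERTL_cre than in mock_cre (-0.75 ± 0.24, adjusted p = 0.0247). EHF, an epithelial ETS factor, did the same at 0.70 ± 0.16 and -0.94 ± 0.16 (adjusted p = 0.00465 and 0.000276). With the 3′/5′ covariate the differences in LhTERTL_cre minus mock_cre were -2.57 for ESRP1 (adjusted p = 0.0212), -1.02 for EPCAM (0.208), -0.65 for CDH1 (0.270) and -1.02 for EHF (0.0119).

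**Figure D4:**
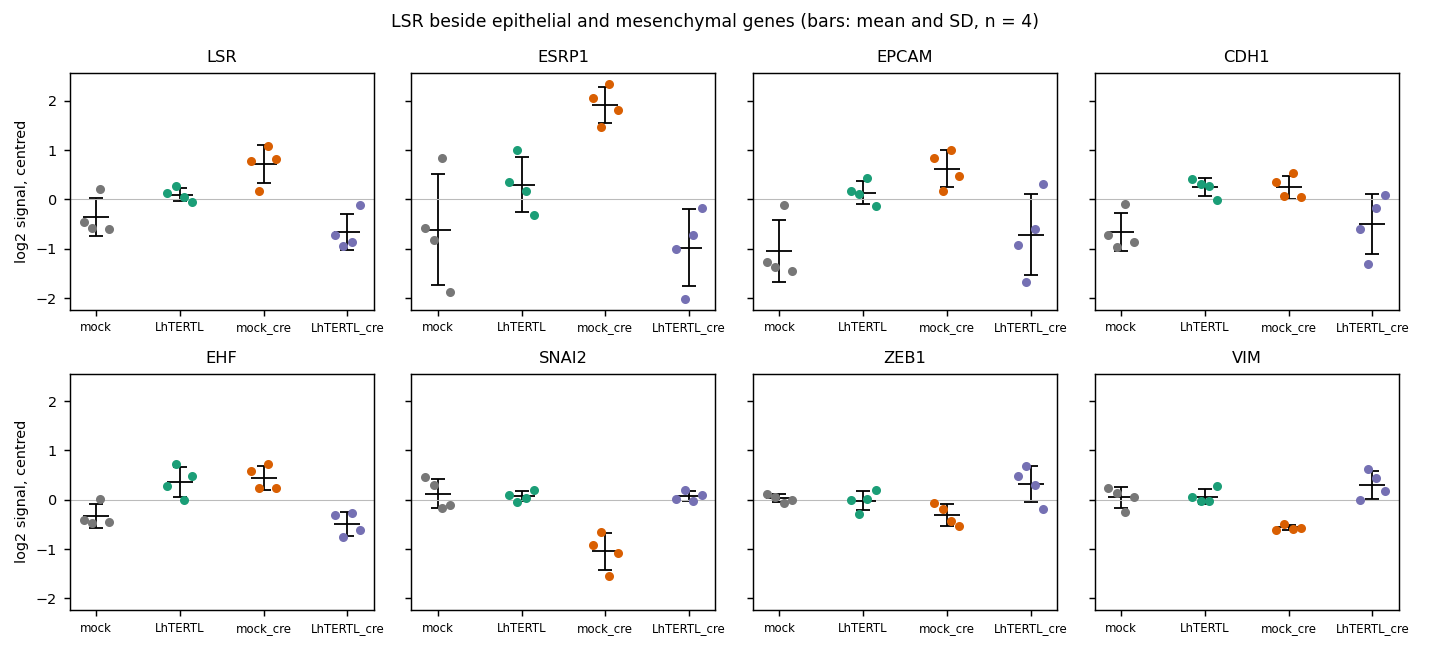
Centred log2 signal (vertical axes) of LSR and of ESRP1, EPCAM, CDH1, EHF, SNAI2, ZEB1 and VIM in the 16 tumours, grouped by line along the horizontal axes, with points for tumours and bars for the mean and SD of 4. ESRP1 has its highest values in mock_cre, as LSR does, and SNAI2 and VIM have their lowest there.

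Of the 14 epithelial transcription and splicing factors listed, none was higher and 7 were lower in LhTERTL_cre than in mock_cre, where 15% and 13% of all genes were. Their median was -0.20 against 0.02 over all genes. GRHL1, a grainyhead factor, was among them (-0.61 ± 0.11, adjusted p = 0.000486), as were OVOL2 (-0.32, adjusted p = 0.0308) and KLF4 (-0.46, adjusted p = 0.00840). In LhTERTL minus mock 2 of the 14 were higher and 1 lower, against 12.3% and 8% of all genes. The lower gene was KLF4 (-0.38 ± 0.12, adjusted p = 0.0354), so unlike EHF it was lower with long telomeres in both pairs. GRHL2, the grainyhead factor best known for driving claudin genes, had line means from -0.10 to 0.23 and was called in 1 pair of lines, LhTERTL minus mock_cre, at the threshold (0.33, adjusted p = 0.0499). Of 15 adherens junction genes and claudin partners, 1 was higher and 5 lower in LhTERTL_cre minus mock_cre, against 15% and 13% of all genes. The 5 included CTNND1 (p120-catenin, -0.41 ± 0.06, adjusted p = 9.91e-05) and SPINT1, a protease inhibitor (-0.67 ± 0.12, adjusted p = 0.000568). In LhTERTL minus mock 4 of the 15 were higher and 1 lower, against 12.3% and 8% of all genes. The lower gene was CTNND1 (-0.20 ± 0.06, adjusted p = 0.0274).

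Of 7 repressors of junction genes, 4 were called higher and 1 lower between long and short telomeres, against 18.4% and 14.1% of all genes. In LhTERTL_cre minus mock_cre 4 were higher and none lower, against 15% and 13%. Without the 4 mock_cre arrays the first count was 1 higher and none lower. SNAI2 (Slug) was low in mock_cre alone, at -1.05 ± 0.37 (SD, n = 4), against 0.12, 0.07 and 0.07 in mock, LhTERTL and LhTERTL_cre. It was lower in mock_cre than in mock (-1.17 ± 0.15, SE, adjusted p = 6.36e-05), and LhTERTL minus mock gave -0.05 (adjusted p = 0.875). ZEB1 ran from -0.30 ± 0.22 in mock_cre to 0.32 ± 0.37 in LhTERTL_cre (0.62 ± 0.15, adjusted p = 0.00452). TWIST1 was higher with long telomeres in both pairs (0.37 ± 0.08 and 0.36 ± 0.08, adjusted p = 0.00265 and 0.00225), and TWIST2 in the Cre pair (0.51 ± 0.12, adjusted p = 0.00403). ZEB2 was the 1 repressor lower with long telomeres (-0.23 ± 0.07, adjusted p = 0.0205). VIM (vimentin), a filament of mesenchymal-like cells, was -0.56 ± 0.05 in mock_cre and 0.30 ± 0.28 in LhTERTL_cre (SD, n = 4), a difference of 0.87 ± 0.12 (SE, adjusted p = 4.94e-05).

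Genes were also ranked by how closely they followed a junction gene over the 16 tumours, by the root mean square difference of centred log2 values, for the 3 with the widest range of line means. This is a description and carries no test, and the tumours compared share their lines and arrays. For LSR the nearest were PRSS16 (0.20), LIMCH1 (0.25) and RDH10 (0.25). For MARVELD2 they were INADL (0.15), MLLT3 (0.16) and COL5A2 (0.16), the first of which is the polarity scaffold named above. For CLDN1 they were C15orf48 (0.33), CXCR4 (0.36), a chemokine receptor, and SPINK1 (0.40), a trypsin inhibitor. CXCR4 had line means of 0.95 and 1.05 in mock and LhTERTL, and -0.57 and -0.69 in their Cre counterparts, so like CLDN1 it stood low in both Cre lines.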

How the data were processed

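Total RNA of 16 xenograft tumours was labelled from 100 ng and hybridised, 1 array per tumour. The deposited values are log2 signals made by the authors with RMA, per the submitters' processing notes; the array platform, software version and annotation release are not given in the sources used here. The values show a step the labels do not mention, centring of each probe set on its median, since no median exceeded 5e-07. The series' other deposited table held the same log2 values.

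Of 54675 probe sets, 62 were controls and 41479 named exactly 1 gene. Their mean per gene gave 20307 genes, 9571 of them read by 1 probe set. The test was limma's, version 3.58.1 under R 4.3.3 (lmFit with 1 mean per line over all 16 arrays, contrasts, eBayes, two-sided, Benjamini-Hochberg over all genes at 0.05). Brightness filters could not be applied because no level remains, and 4 arrays per line limit the precision. On simulated data over 20307 genes, LhTERTL minus mock recovered 81 of 100 changes of 0.5 and 96 of 100 changes of 1 (log2), with 9 false calls. For LhTERTL_cre minus mock_cre these were 75, 98 and 14, and for mock_cre minus mock 77, 97 and 12. The simulated noise was normal and independent between genes, so effects shared across an array were left out. Far fewer genes were changed than were called in the data, so these rates need not hold there.

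The junction genes, gene lists and marker lists were chosen with earlier results of these data known. Named genes are the 9 junction genes, 16 fixed names and, from each list, up to 4 of the smallest adjusted p between long and short telomeres and up to 2 in each of 3 other comparisons; genes named outside this rule are said to be so, or are markers. Some genes that the rule picks are counted in their lists but not reported here by name. Older symbols in the file were matched by hand, such as INADL for PATJ. Promoters come from RefSeq on GRCh38.p14 and were searched with Python 3.11.15.

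Replicate numbers did not pair the tumours: correlations of same-numbered deviations ran from -0.33 to 0.37, and 9 of 24 exceeded 0.1. Alternatives were other summaries of probe sets, single probe sets, quantile normalisation, robust moderation, array weights, a replicate block, fits on the lines compared only, the 3′/5′ ratio or spike signal as a covariate, a threshold of 0.01, a filter at 1.5-fold, each array left out, the mock_cre arrays left out, and the line as the unit.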

Additional observations from a re-analysis of the deposited data

Results flagged for a closer look

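For 3 of the 9 junction genes, the difference between the long- and short-telomere lines was not the same without Cre as with Cre. This was by the test of the difference itself, which called 4.98% of all genes higher and 5.62% lower. LhTERTL_cre minus mock_cre, less LhTERTL minus mock, was -1.83 for LSR, -1.06 for MARVELD2 and 0.44 for CLDN4. The mock_cre arrays, which enter this difference, also had the highest 3′/5′ ratios, from 0.40 to 1.21, and with the ratio as a covariate the values were -1.65 for LSR (adjusted p = 0.0150), -0.95 for MARVELD2 (adjusted p = 0.0519) and 0.48 for CLDN4 (adjusted p = 0.0595).

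A single tumour lay far from the other 3 of its line in 2 of the 36 combinations of gene and line, judged by the gap to the nearest tumour as a share of the range (Dixon's 95% limit for 4 values). Chance passes this limit in about 5% of groups. For TJP1, the tumour LhTERTL 4 was low at -0.35, where the others lay between -0.17 and -0.14. For F11R, the tumour mock_cre 3 was high at 0.16, where the others lay between -0.31 and -0.23.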

How the results depend on the processing

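Counts are of the 9 junction genes called. On the 11 arrays of low spike signal, a choice made after seeing the data, the difference between the telomere contrasts, LhTERTL_cre minus mock_cre and LhTERTL_cre minus LhTERTL each had 0 higher, mock_cre minus mock had 1 higher and long minus short telomeres had 2 lower. With the 3′/5′ covariate the difference between the telomere contrasts had 0 higher and 1 lower, LhTERTL_cre minus LhTERTL and mock_cre minus mock had 0 higher, and long minus short had 2 lower. At a threshold of 0.01 the difference between the contrasts and LhTERTL_cre minus LhTERTL had 0 higher, LhTERTL_cre minus mock_cre and mock_cre minus mock 1 higher, and long minus short 2 lower. With a filter at 1.5-fold, 0 were higher in the difference between the contrasts, long minus short, LhTERTL minus mock, LhTERTL_cre minus mock_cre and LhTERTL_cre minus LhTERTL. Mock_cre minus mock then had 1 higher, LhTERTL minus mock 0 lower and long minus short 1 lower. Array weights gave LhTERTL minus mock 2 higher, LhTERTL_cre minus LhTERTL 3 lower, LhTERTL_cre minus mock_cre 1 higher and mock_cre minus mock 2 lower. Without mock_cre 4 and mock 3, also chosen after seeing the data, LhTERTL minus mock had 2 higher, LhTERTL_cre minus LhTERTL 0 higher and 2 lower, and LhTERTL_cre minus mock_cre 1 higher. In that setting, and with quantile normalisation, LSR lost its call in long minus short. LhTERTL_cre minus LhTERTL had 0 higher with the median of probe sets, without _x_at, _s_at and _a_at probe sets and on the arrays compared only, and 2 lower with the most variable probe set or the spike covariate. The last 2 settings gave long minus short 2 higher, the fit on the arrays compared only gave LhTERTL_cre minus mock_cre 1 higher, and quantile normalisation gave mock_cre minus mock 1 higher. With the line as the unit, long minus short had 0 higher and 0 lower by limma, where 2 junction genes had an unadjusted p under 0.05. Over all 6 pairs of lines 21 tests were called, and 11 on the arrays of low spike signal, 13 with the 3′/5′ covariate and 12 at 1.5-fold.

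Leaving out 1 array at a time, the counts ranged from 1 to 2 higher and 4 to 4 lower in long minus short, 1 to 2 and 1 to 1 in LhTERTL minus mock, 1 to 2 and 3 to 4 in LhTERTL_cre minus mock_cre, 1 to 3 and 1 to 2 in mock_cre minus mock, 0 to 1 and 1 to 3 in LhTERTL_cre minus LhTERTL, and 1 to 1 and 2 to 2 for the difference between the contrasts. The pairs of lines called ranged from 17 to 25. No difference of a junction gene that was called reversed when an array was left out.

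The replicate block added the call of OCLN in mock_cre minus mock (0.49, adjusted p = 0.0186) and changed no other call of a junction gene. Only 5 of 16 tumours correlated best with tumours of their own number. Without the 4 mock_cre arrays, long minus short reversed for LSR (0.071), ESRP1 (0.27) and SNAI2 (-0.050), the last 2 from -0.99 and 0.53. The F11R probe set 224097_s_at alone was -0.30 in mock_cre minus mock (adjusted p = 0.0474). TERT without _x_at, _s_at and _a_at probe sets was -0.58 in LhTERTL minus mock, -0.056 in long minus short, 0.35 in LhTERTL_cre minus LhTERTL and 1.05 in the difference between the contrasts. The cause of these changes was not tested. Among the wider lists, the counts that moved most between long and short telomeres were plaque proteins lower, 1 of 8 at 1.5-fold, and repressors higher, 1 of 4 without the mock_cre arrays.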

Other observations

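Cytoskeletal markers of the tumour cells, named here after their values were seen, did not all follow LSR. KRT18, a keratin of simple epithelia, was 0.58 ± 0.12 higher in LhTERTL than in mock (SE, n = 4 per line, adjusted p = 0.00181) and lower in LhTERTL_cre than in mock_cre (-0.51 ± 0.12, adjusted p = 0.00274), and the direct test of the difference gave -1.09 ± 0.16 (adjusted p = 0.000575). KRT19, another keratin of simple epithelia, was higher with long telomeres in both pairs (0.23 ± 0.07 and 0.46 ± 0.07, adjusted p = 0.0211 and 7.06e-05). KRT8, the partner of KRT18, gave 0.23 ± 0.12 and -0.26 ± 0.12 (adjusted p = 0.203 and 0.135). KDR, an endothelial growth factor receptor, was lower with long telomeres in both pairs (-1.43 and -0.93), whereas PECAM1, also an endothelial marker, was higher in LhTERTL than in mock (0.45 ± 0.13, adjusted p = 0.0213).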
